A study of Mus musculus with 12 samples.

Results

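The genes described are *Dlx3*, *Dlx5*, *Dlx6*, *Eya1*, *Eya2*, *Six4*, *Tfap2a* and *Gata3*, 8 transcriptional regulators known from the surface ectoderm and from the sensory placodes that form in it. They were chosen by symbol among 38911 genes, the counts of whose transcripts were added up in each of 12 RNA-seq libraries of mouse gastruloids. All 8 passed the filter on low counts, as did 16966 genes in all. Gastruloids are free-floating aggregates of embryonic stem (ES) cells that form the germ layers in culture, and these were made from the E14TG2a line kept in 2i and LIF. Treatment started on day 3 and the aggregates were harvested on day 4, each library from a pool of gastruloids of 1 plate. The 1X glucose group was in medium with 21.25 mM glucose, the no glucose group in medium with 0 mM and the 3X glucose group in medium with 63.75 mM, and the 2-DG group received 5 mM 2-deoxy-D-glucose, a glucose mimic that cannot pass through glycolysis, on top of 1X glucose. Each group held 3 libraries, from ES cells at passages 13, 15 and 16, so that a passage gave 1 library of every treatment. The libraries held between 31902471 and 45956080 counts.

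In the embryo, the ectoderm next to the neural plate gives rise to epidermis, to the neural crest and to a horseshoe of preplacodal tissue from which the lens, the nose, the inner ear and cranial ganglia arise. BMP signalling favours surface ectoderm, in which AP-2 and Gata factors, Foxi factors and Dlx homeodomain proteins act as early competence factors. Homeodomain proteins of the *Six4* kind and their Eya partners, phosphatases that act as transcriptional co-activators, then mark the preplacodal region. The same genes are also known from somites, the intermediate mesoderm and the pharyngeal region, so that in a whole gastruloid their transcripts need not come from ectoderm. Of the markers that would define later epidermis, *Trp63* and *Krt14* were at 0 counts in 11 of 12 libraries each and never above 2 counts. *Krt5*, the basal keratin that pairs with *Krt14*, was at 0 in 2 libraries and reached 38 counts, with a mean of 0.116 CPM under 1X glucose and 0.767 under 2-DG (log2 difference 2.63, SE 0.85, adjusted p = 0.0565, and 0.0166 with passage as a block, edgeR). *Cdh1* and *Epcam*, epithelial adhesion genes, were counted in every library. The 8 genes are therefore described here by name, and not as a measure of a tissue.

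On the mouse assembly GRCm38, with RefSeq gene bounds, *Dlx3* lies at chr11:95120117-95125296 on the plus strand. *Dlx5* lies at chr6:6877801-6882068 on the minus strand and *Dlx6* beside it at chr6:6863334-6867970 on the plus strand. *Tfap2a* lies at chr13:40713802-40738238 and *Gata3* at chr2:9857078-9887953, both on the minus strand. *Eya1* lies at chr1:14168953-14311035 on the minus strand, *Eya2* at chr2:165595028-165771727 on the plus strand and *Six4* at chr12:73099609-73114031 on the minus strand. Of the transcripts listed in the files *Dlx3* and *Dlx6* have 1 each and *Eya1* has 15.

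The 8 genes differed widely in level. Levels are given as CPM, the counts of a gene scaled to a common library size with TMM factors, and between genes as CPM per kilobase of the longest protein-coding transcript. *Six4*, a homeodomain factor, was the most abundant at 9.60 ± 1.67 CPM per kilobase (SD, n = 12), and *Eya1* followed at 4.41 ± 2.12. *Dlx5* stood at 1.42 ± 0.971, *Dlx3* at 1.17 ± 1.13 and *Eya2* at 0.816 ± 0.238 CPM per kilobase. *Dlx6*, *Gata3* and *Tfap2a* were the lowest, at 0.343 ± 0.134, 0.211 ± 0.185 and 0.179 ± 0.0531 CPM per kilobase. Within a library *Six4* exceeded *Eya1*, *Eya1* exceeded *Dlx5* and *Eya2* exceeded *Dlx6* in 12 of 12 libraries. The order of *Dlx5* over *Dlx3* held in 10 libraries and that of *Dlx3* over *Eya2* in 4, and *Gata3* exceeded *Tfap2a* in 6 of 12 libraries, so that these neighbours did not stand in a fixed order. *Tfap2a* and *Dlx6* rest on as few as 11 and 12 counts in a library, which limits the precision of their values.

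**Figure D1:**
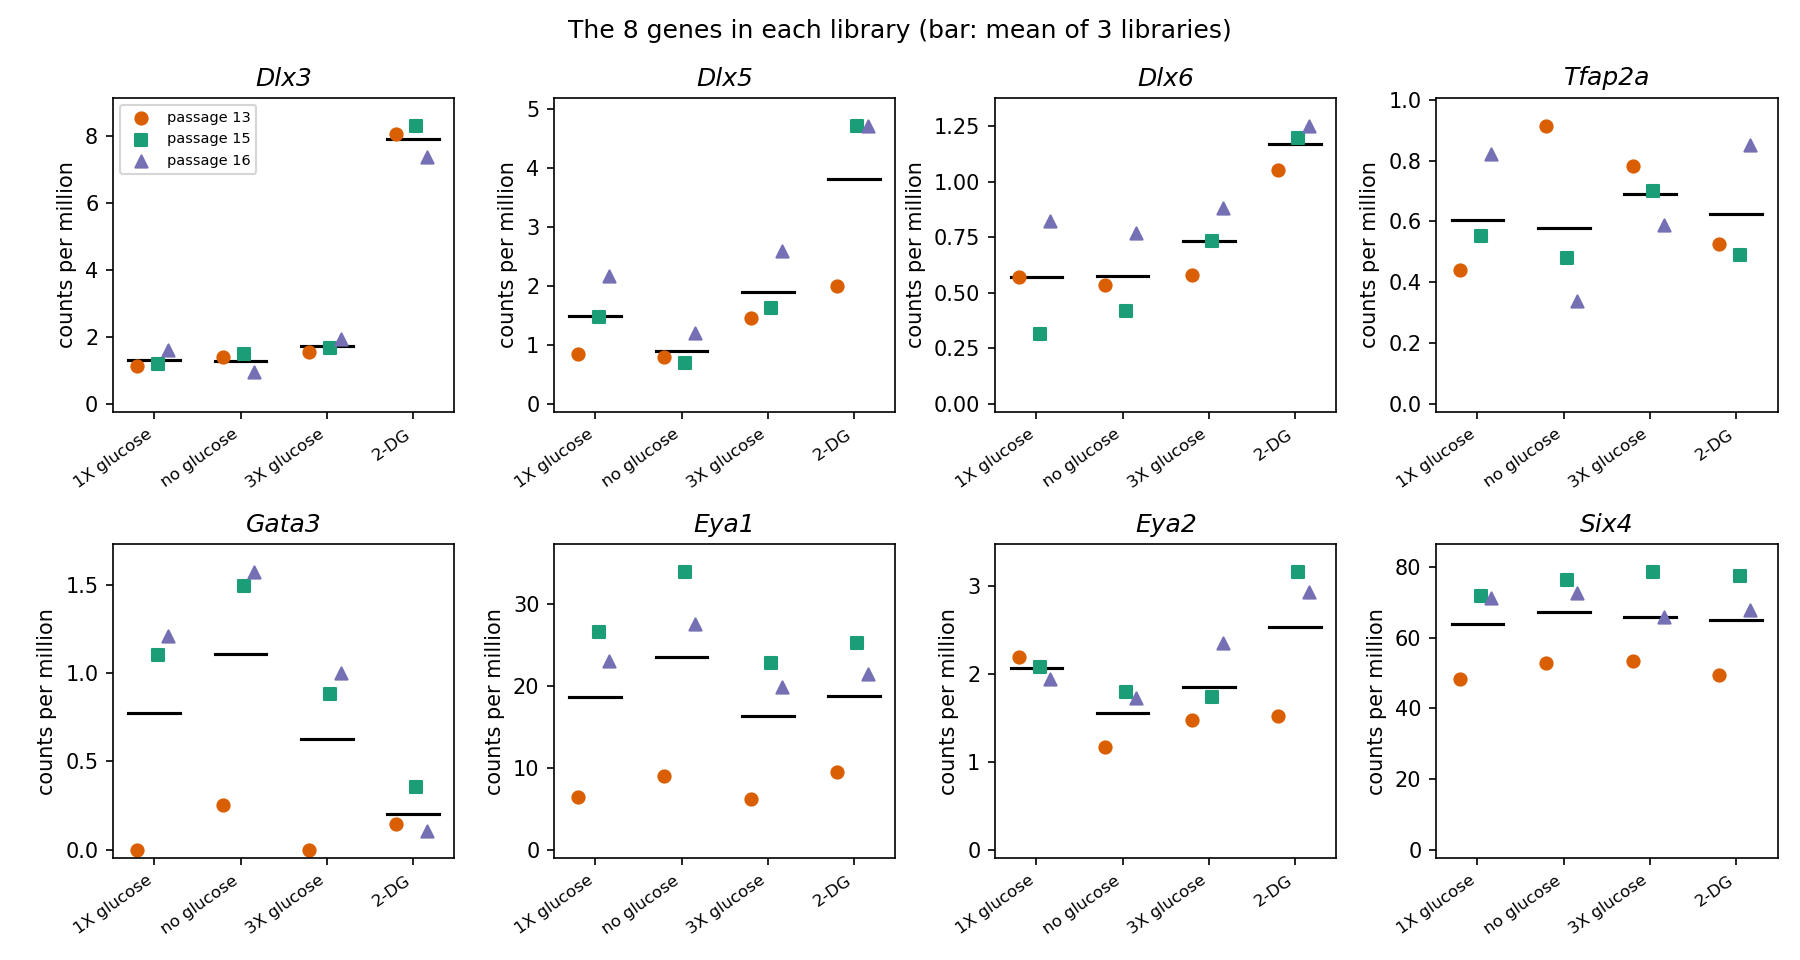
CPM of the 8 genes in each of 12 libraries (vertical axes, each with its own scale), by treatment (horizontal axis), with the ES cell passage shown by colour and shape and the mean of 3 libraries as a bar. *Dlx3* stood between 7.38 and 8.31 CPM in the 2-DG libraries and at most at 1.93 elsewhere, whereas the passage 13 libraries were the lowest for *Eya1* and *Six4* in every treatment.

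The comparison of 2-DG with 1X glucose asks what the glucose mimic does where glucose is present, and among the 8 genes *Dlx3* and *Dlx5* rose. *Dlx3*, a homeobox gene of the epidermal and placental lineages, was counted 275, 305 and 277 times in the 2-DG libraries of passages 13, 15 and 16, or 8.05, 8.31 and 7.38 CPM. Under 1X glucose it stood at 1.12, 1.18 and 1.60 CPM, without glucose at 1.39, 1.49 and 0.955, and under 3X glucose at 1.54, 1.68 and 1.93. No library of another treatment came near the 2-DG values. *Dlx3* rose by 2.60 on the log2 scale (SE 0.20, adjusted p = 5.12e-05, edgeR's quasi-likelihood test) against 1X glucose, and the ratio of the 2 libraries of a passage was 7.19, 7.02 and 4.61 in passages 13, 15 and 16. Against no glucose the rise was 2.63 (SE 0.20, adjusted p = 4.80e-05). The groups are bulk aggregates, in which more cells of a type and more RNA per cell cannot be told apart.

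*Dlx5* and *Dlx6* lie side by side on chromosome 6 and are known to be expressed together in branchial arches, placodes and limb buds. *Dlx5* measured 1.99, 4.71 and 4.71 CPM in the 2-DG libraries of passages 13, 15 and 16, against 0.834, 1.47 and 2.16 under 1X glucose. Without glucose it measured 0.789, 0.687 and 1.20 CPM, and under 3X glucose 1.45, 1.62 and 2.59. The 2-DG library of passage 13 thus overlapped with the passage 16 libraries of 1X and 3X glucose, while within each passage 2-DG was the highest of the 4 treatments. *Dlx5* rose by 1.35 on the log2 scale against 1X glucose (SE 0.41, adjusted p = 0.0463, edgeR) and by 2.09 against no glucose (SE 0.44, adjusted p = 0.00842). With passage as a block the adjusted p against 1X glucose was 0.000565. The call against 1X glucose was lost without the 1X glucose library of passage 13 (adjusted p = 0.122) or passage 15 (0.122) and without the 2-DG library of passage 15 (0.142) or passage 16 (0.135), and without a filter on low counts it was 0.0655. It was lost too with only the groups compared (0.0980), with the most abundant transcript alone (0.683) and without all libraries of passage 15 (0.371) or passage 16 (0.124). Against no glucose it was lost with the most abundant transcript alone (adjusted p = 0.443) and without all libraries of passage 15 (0.197) or passage 16 (0.0656).

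*Dlx6* was low throughout, with 36, 44 and 47 counts in the 2-DG libraries and between 12 and 38 in the other 9. In CPM the 2-DG libraries stood at 1.05, 1.20 and 1.25, and those of 1X glucose at 0.571, 0.316 and 0.821. The libraries of no glucose held 0.536, 0.418 and 0.770 CPM and those of 3X glucose 0.580, 0.731 and 0.881. All 3 values of the 2-DG group lay above all 9 others, as they did for *Dlx3* and for no further gene of the 8, that is for 2 of 8 genes, beside 12.1% of all genes tested. The fitted difference of *Dlx6* from 1X glucose was 1.02 on the log2 scale (SE 0.33), with an adjusted p of 0.0550 that missed the threshold of 0.05. With the passage as a block *Dlx6* passed it against 1X glucose (1.05, adjusted p = 0.00611) and against no glucose (1.05, adjusted p = 0.00763), and without the 1X glucose library of passage 16 it passed it as well (adjusted p = 0.0293). DESeq2 called it against 1X glucose (adjusted p = 0.0486). On the other strand *Dlx6* overlaps *Dlx6os1*, an antisense RNA counted 23, 32 and 27 times under 2-DG and between 0 and 24 times elsewhere. The libraries were directional, but the strand setting of the counting is not given in the sources used here. The counts of the pair may therefore share reads.

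In all, 2 of the 8 genes, *Dlx3* and *Dlx5*, were called higher under 2-DG than under 1X glucose and none lower, where 17.6% of all genes tested were called and 9.12% were called higher. With the passage block it was 3 of 8, *Dlx6* being added, beside 41.3% of all genes. Against no glucose the same 2 genes were called, beside 18.9% of all genes, and with the block 5 of 8, beside 43.1%, of which *Dlx6* and *Eya2* were higher and *Gata3* lower besides. Both comparisons use the same 2-DG libraries. The counts over all genes moved by more than 1.5 times with the block, from 2990 to 7001 against 1X glucose and from 3207 to 7305 against no glucose.

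**Figure D2:**
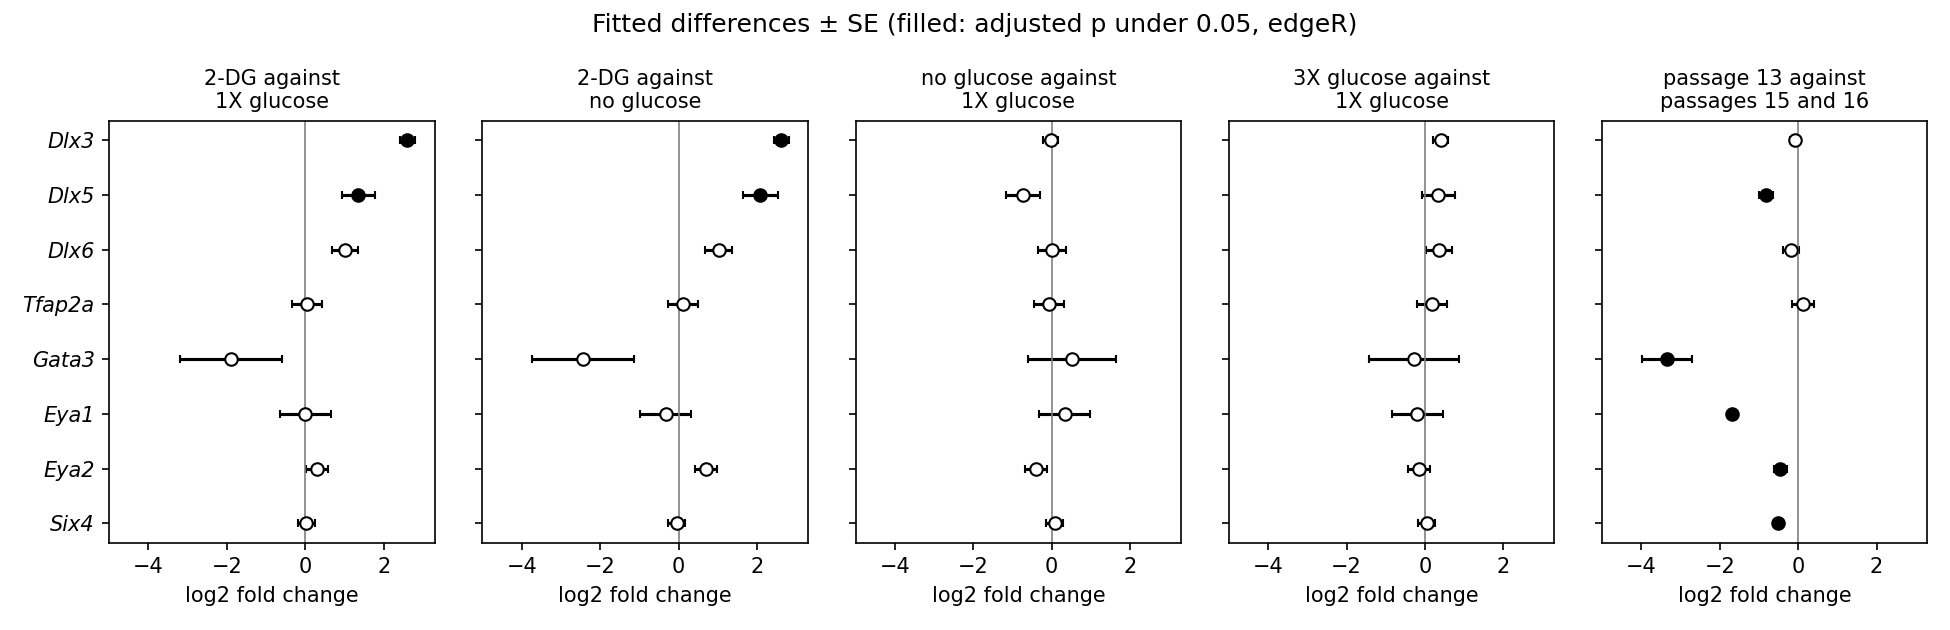
Fitted log2 fold changes (horizontal axis) of the 8 genes in 5 comparisons, with SE bars and filled points for an adjusted p under 0.05 in edgeR's test. *Dlx3* and *Dlx5* lie to the right of 0 in both 2-DG comparisons, no gene is filled in the comparisons of glucose levels, and 5 genes are filled to the left of 0 for passage 13.

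The AP-2 factor *Tfap2a* and the zinc finger factor *Gata3*, which act early in non-neural ectoderm, were not called higher in either 2-DG comparison. *Tfap2a* measured 0.527, 0.490 and 0.852 CPM under 2-DG and 0.439, 0.552 and 0.821 under 1X glucose. The values of no glucose were 0.915, 0.478 and 0.339 CPM and those of 3X glucose 0.783, 0.701 and 0.587. The ranges of all 4 treatments overlapped, and the difference of *Tfap2a* between 2-DG and 1X glucose was 0.04 on the log2 scale (SE 0.38, adjusted p = 0.957, edgeR). With 11 to 38 counts a library, even a difference well above that error could go uncalled.

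*Gata3* was counted 5, 13 and 4 times in the 2-DG libraries of passages 13, 15 and 16, and 0, 42 and 56 times under 1X glucose. Without glucose it was counted 8, 50 and 51 times, and under 3X glucose 0, 29 and 41 times. In passages 15 and 16 the 2-DG library was the lowest of the 4, at 0.354 and 0.107 CPM beside 0.884 to 1.57 CPM, whereas in passage 13 all 4 libraries were at or below 0.252 CPM. A count of 0 in the 1X and 3X glucose libraries of passage 13 allows up to 0.0659 and 0.0870 CPM, taken as 3 counts and covering counting error only. The fitted difference from 1X glucose was −1.90 (SE 1.30, adjusted p = 0.359), and −2.43 from no glucose (SE 1.30, adjusted p = 0.221). With the passage block the latter passed the threshold (−2.42, adjusted p = 0.0178) and the former did not (−1.76, adjusted p = 0.0706). Without the 4 libraries of passage 13 both passed it, at −2.32 (adjusted p = 0.00680) and −2.72 (adjusted p = 0.00305). On the other strand *Gata3* overlaps *4930412O13Rik*, which was counted 3, 8 and 0 times under 2-DG and 7, 25 and 33 times under 1X glucose. Here too the counts of the pair may share reads.

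The RefSeq promoter table (GRCm38.p6, 250 bases before to 50 after a start) held 3 of the 8 genes. The promoter of *Gata3*, chr2:9878551-9878850 on the minus strand, is shown because it held the letters GCCNNNGGC of an AP-2 site, the kind bound by *Tfap2a*, which are printed in capitals:

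Gata3: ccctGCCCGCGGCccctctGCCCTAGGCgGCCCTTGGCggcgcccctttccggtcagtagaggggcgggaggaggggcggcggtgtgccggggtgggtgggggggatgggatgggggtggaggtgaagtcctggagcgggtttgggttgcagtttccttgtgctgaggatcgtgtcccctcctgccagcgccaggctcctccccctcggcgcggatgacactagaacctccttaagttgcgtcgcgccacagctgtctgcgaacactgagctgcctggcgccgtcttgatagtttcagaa

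The letters read the same on both strands, so that a search of 1 strand covered both, and this search was chosen after the sequences had been seen. They began at −246, −231 and −221, counted in bases from the start. This start lies inside the gene bounds of *Gata3*, and whether the transcripts with counts begin there was not tested. At least 1 match was found in 16.6% of the 32851 promoters of the table, and at least 3 matches in 0.444%. The promoters of *Six4* and *Tfap2a* held 0 matches. *Dlx3*, *Dlx5*, *Dlx6*, *Eya1* and *Eya2* had no entry.

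*Eya1*, *Eya2* and *Six4* are known to act as partners in the preplacodal region and in somites, and none was called between 2-DG and 1X glucose. *Six4* averaged 64.9 ± 14.3 CPM under 2-DG and 63.7 ± 13.5 under 1X glucose (SD, n = 3), and 67.2 ± 12.6 and 65.9 ± 12.6 without glucose and with 3X glucose. Its difference between 2-DG and 1X glucose was 0.03 on the log2 scale (SE 0.22, adjusted p = 0.954, edgeR), and with the passage block 0.02 (SE 0.05, adjusted p = 0.724). *Eya1* averaged 18.7 ± 8.23 CPM under 2-DG and 18.7 ± 10.8 under 1X glucose, a difference of 0.00 (SE 0.65, adjusted p = 0.997). That SE includes the spread between passages. The ratio of 2-DG to 1X glucose for *Eya1* was 1.48, 0.950 and 0.928 in passages 13, 15 and 16. The study names *Eya1* among the genes upregulated under 2-DG, which this fit of gene totals did not show. The reason was not tested. Within each treatment the passage 13 library was the lowest for both *Six4* and *Eya1*.

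*Eya2* measured 1.52, 3.16 and 2.93 CPM under 2-DG in passages 13, 15 and 16 and 2.20, 2.08 and 1.94 under 1X glucose. Without glucose it stood at 1.17, 1.79 and 1.73 CPM, and with 3X glucose at 1.48, 1.74 and 2.35. In passages 15 and 16 the 2-DG library was the highest of the 4, and in passage 13 the 1X glucose library was. *Eya2* did not pass the test against 1X glucose (0.29, SE 0.28, adjusted p = 0.527) or against no glucose (0.70, SE 0.28, adjusted p = 0.112). Against no glucose it passed with the passage block (0.68, adjusted p = 0.0261) and without the 2-DG library of passage 13 (0.96, adjusted p = 0.0262). Without all libraries of passage 13 it passed against 1X glucose as well (0.60, adjusted p = 0.0495).

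The comparisons of glucose levels ask whether glucose supply alone changes these genes. Between no glucose and 1X glucose 0 of the 8 genes were called by edgeR, beside 0.0118% of all genes, 0 had an unadjusted p under 0.05 and 0 were called by DESeq2. With the passage block 2 of the 8, *Eya1* (0.35, SE 0.11, unadjusted p = 0.00936, adjusted p = 0.436) and *Dlx5* (−0.70, SE 0.24, unadjusted p = 0.0164, adjusted p = 0.450), had an unadjusted p under 0.05 and neither was called. The same 3 counts were 0 between 3X and 1X glucose, beside 0% of all genes called (178 genes at an unadjusted p under 0.05, and 2 called by DESeq2). Between 3X and no glucose 0.0118% of all genes were called and again none of the 8, by either tool. *Dlx5* alone of the 8 had an unadjusted p under 0.05 there without the block, at 1.08 on the log2 scale (SE 0.44, unadjusted p = 0.0315, adjusted p = 1.00 over all genes). With the passage block *Eya1* (−0.53, SE 0.11, adjusted p = 0.0663) and *Dlx5* (1.08, SE 0.24, adjusted p = 0.0764) came nearest and neither was called. The ratio of 3X to no glucose for *Eya1* was 0.690, 0.674 and 0.720 in passages 13, 15 and 16, and that of no glucose to 1X glucose was 1.40, 1.27 and 1.19. *Dlx3* differed by −0.03 (SE 0.20) between no glucose and 1X glucose and by 0.40 (SE 0.19) between 3X and 1X glucose. Without the block the same differences of *Eya1* were 0.33 (SE 0.65) and −0.20 (SE 0.65), and those of *Six4* 0.08 (SE 0.22) and 0.05 (SE 0.22).

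The ES cell passage set apart another group of these genes. The sources do not say whether the passages were separate cultures or successive passages of 1 culture, so that tests between them compare these 3 sets of libraries and not passage number as such. *Eya1* measured 6.39, 9.46, 8.96 and 6.18 CPM in the passage 13 libraries of 1X glucose, 2-DG, no glucose and 3X glucose. In passage 15 the same 4 treatments gave 26.6, 25.3, 33.8 and 22.8 CPM, and in passage 16 they gave 23.1, 21.4, 27.5 and 19.8. The highest value of passage 13 lay below the lowest of the others. *Eya1* fell by 1.69 on the log2 scale in passage 13 against the mean of passages 15 and 16 (SE 0.09, adjusted p = 7.80e-07, edgeR). With the most abundant transcript alone in place of the gene total, the difference was −0.22 (adjusted p = 0.878). A term for 2-DG in passage 13, which rests on 1 library and was chosen after its value had been seen, was called for 1 of the 8 genes, *Eya1* (0.54, SE 0.12, adjusted p = 0.0369), beside 2.84% of all genes, and nothing is read from it.

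*Six4* measured 48.2, 49.4, 52.8 and 53.3 CPM in the passage 13 libraries of 1X glucose, 2-DG, no glucose and 3X glucose, and between 65.8 and 78.6 in the 8 libraries of passages 15 and 16. These ranges did not overlap either, so that passage 13 lay below all others for 2 of the 8 genes, beside 7.8% of all genes tested. *Six4* fell by 0.51 on the log2 scale (SE 0.04, adjusted p = 3.75e-06). *Gata3*, at 0 to 0.252 CPM in passage 13 and 0.107 to 1.57 in the other passages, fell by 3.35 (SE 0.63, adjusted p = 0.00150), a fitted value that depends on the prior count because 2 of the 4 libraries of passage 13 were at 0. *Dlx5* fell by 0.83 (SE 0.18, adjusted p = 0.00314). *Eya2* fell by 0.45 (SE 0.16, adjusted p = 0.0438). That call of *Eya2* was lost with DESeq2 (adjusted p = 0.0848), with no filter on low counts (0.0853), with no treatment term (0.147), with the most abundant transcript alone (0.787) and without all 2-DG libraries (−0.26, adjusted p = 0.211), and when 1 library was left out: those of passage 13 under 2-DG (adjusted p = 0.198), no glucose (0.120) or 3X glucose (0.119), of passage 15 under 1X glucose (0.0503), 2-DG (0.0849) or no glucose (0.0805), and of passage 16 under 2-DG (0.0757), no glucose (0.0681) or 3X glucose (0.0953). *Dlx3* (−0.08, SE 0.14, adjusted p = 0.681), *Dlx6* (−0.18, SE 0.20, adjusted p = 0.478) and *Tfap2a* (0.12, SE 0.29, adjusted p = 0.766) were not called.

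Thus 5 of the 8 genes were called lower in passage 13, where 22.8% of all genes were called lower, and none higher, and DESeq2 called 4 of them, without *Eya2*. In the test of any difference among the 3 passages 4 of the 8 were called (*Dlx5*, *Eya1*, *Gata3* and *Six4*), beside 46.2% of all genes, and DESeq2 did not call *Gata3* (adjusted p = 0.0519). Between passages 16 and 15 none of the 8 was called by edgeR or DESeq2, beside 4.2% of all genes, although 4 of the 8 had an unadjusted p under 0.05 with edgeR. Markers of other cells moved with passage 13 as well. Of 9 tested genes of paraxial mesoderm and somite 7 were called lower, and the summed level of the 10 listed was 331 to 408 CPM in passage 13, 761 to 1021 in passage 15 and 557 to 778 in passage 16. Markers of definitive endoderm summed to 30.0 to 36.0 CPM in passage 13 and 56.2 to 225 in the others, and those of the neural tube to 135 to 271 CPM and 53.3 to 136. The part of these cell types in the passage differences of *Eya1* and *Six4* was not tested.

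The 2 patterns were separated by a split of the spread of log2(CPM + 0.5) over the 12 libraries, a description with no test. Treatment took 97.7% of the sum of squares of *Dlx3*, 70.1% of that of *Dlx5* and 66.5% of that of *Dlx6*, beside a median of 38.0% over all genes tested. Passage took 95.2% of that of *Six4*, 92.8% of that of *Eya1* and 57.3% of that of *Gata3*, beside a median of 32%. *Eya2* stood between, with 38.2% by treatment and 32.1% by passage. For *Tfap2a* 86.2% was left to neither, beside a median remainder of 16.7%.

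**Figure D3:**
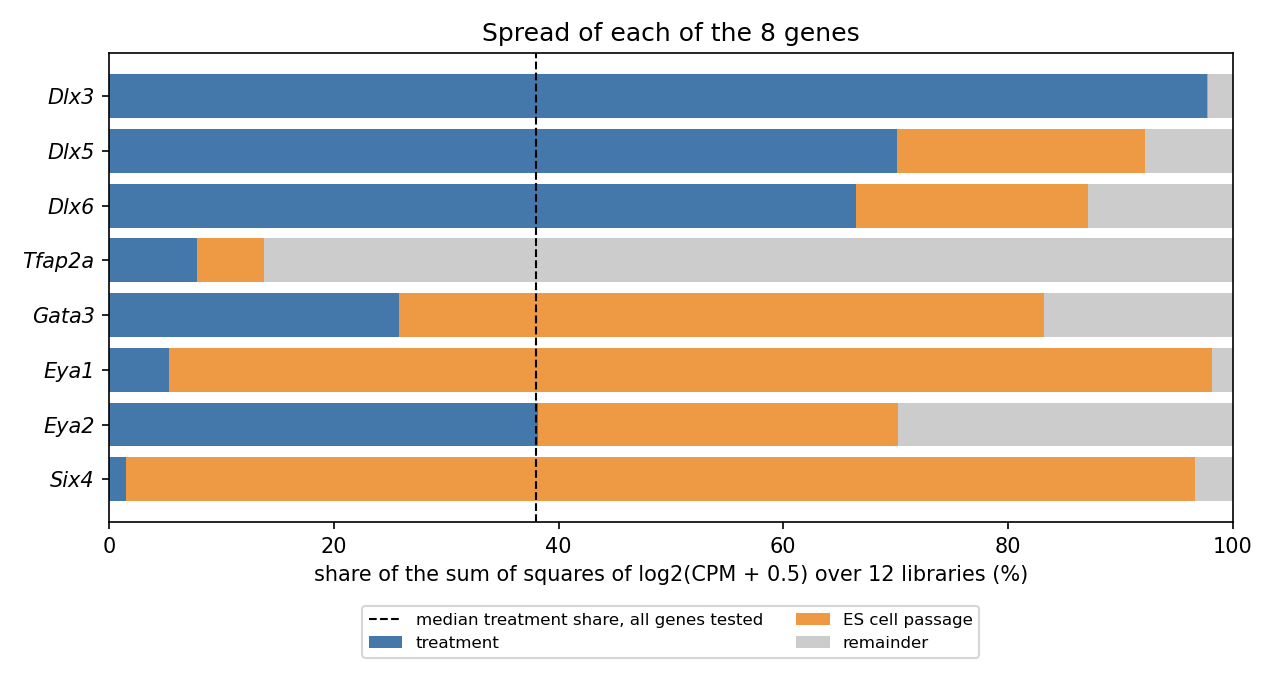
Share (horizontal axis, in percent) of the sum of squares of log2(CPM + 0.5) over 12 libraries that goes to treatment, to ES cell passage and to the remainder, for each of the 8 genes, with a dashed line at the median treatment share of all genes tested. The 3 Dlx genes are mostly treatment, at 66.5% to 97.7%, *Eya1* and *Six4* mostly passage and *Tfap2a* mostly remainder.

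The counts of single transcripts were less stable than those of genes. *Eya1* had 13 transcripts with counts, of which XM_011238344.3 held 50.5% and XR_003950638.1 44.5% of all counts of the gene. The share of XM_011238344.3 ran from 8.42% to 99.7% within 1X glucose alone, and from 80.3% to 96.9% without glucose. *Eya2* was counted wholly on NM_010165.3 in the passage 16 library of no glucose and the passage 13 library of 3X glucose, and wholly on NM_001271963.1 in the other 10. *Dlx5* had 0 of its 68 counts on its leading transcript NM_010056.3 in the 2-DG library of passage 13, against 93.1% and 98.3% in the 2-DG libraries of passages 15 and 16. StringTie estimates how reads shared by transcripts divide among them, and the part of that estimate in these switches was not tested.

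*Six4* was steadier. Its transcript XM_006515632.4 held 27.8% to 43.7% of the counts of the gene under 1X glucose and 25.2% to 49.2% without glucose, against 10.9% to 21.0% under 2-DG and 11.0% to 21.8% under 3X glucose. The shares of the 2-DG and the 3X glucose libraries thus overlapped and lay below those of the other 6, while the gene totals of the 4 treatments overlapped. These ranges are given as a description, with no test. The grouping of 2-DG with 3X glucose follows the values themselves, and how many other transcripts split in this way was not counted. The part of StringTie's estimate in these shares was not tested either.

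**Figure D4:**
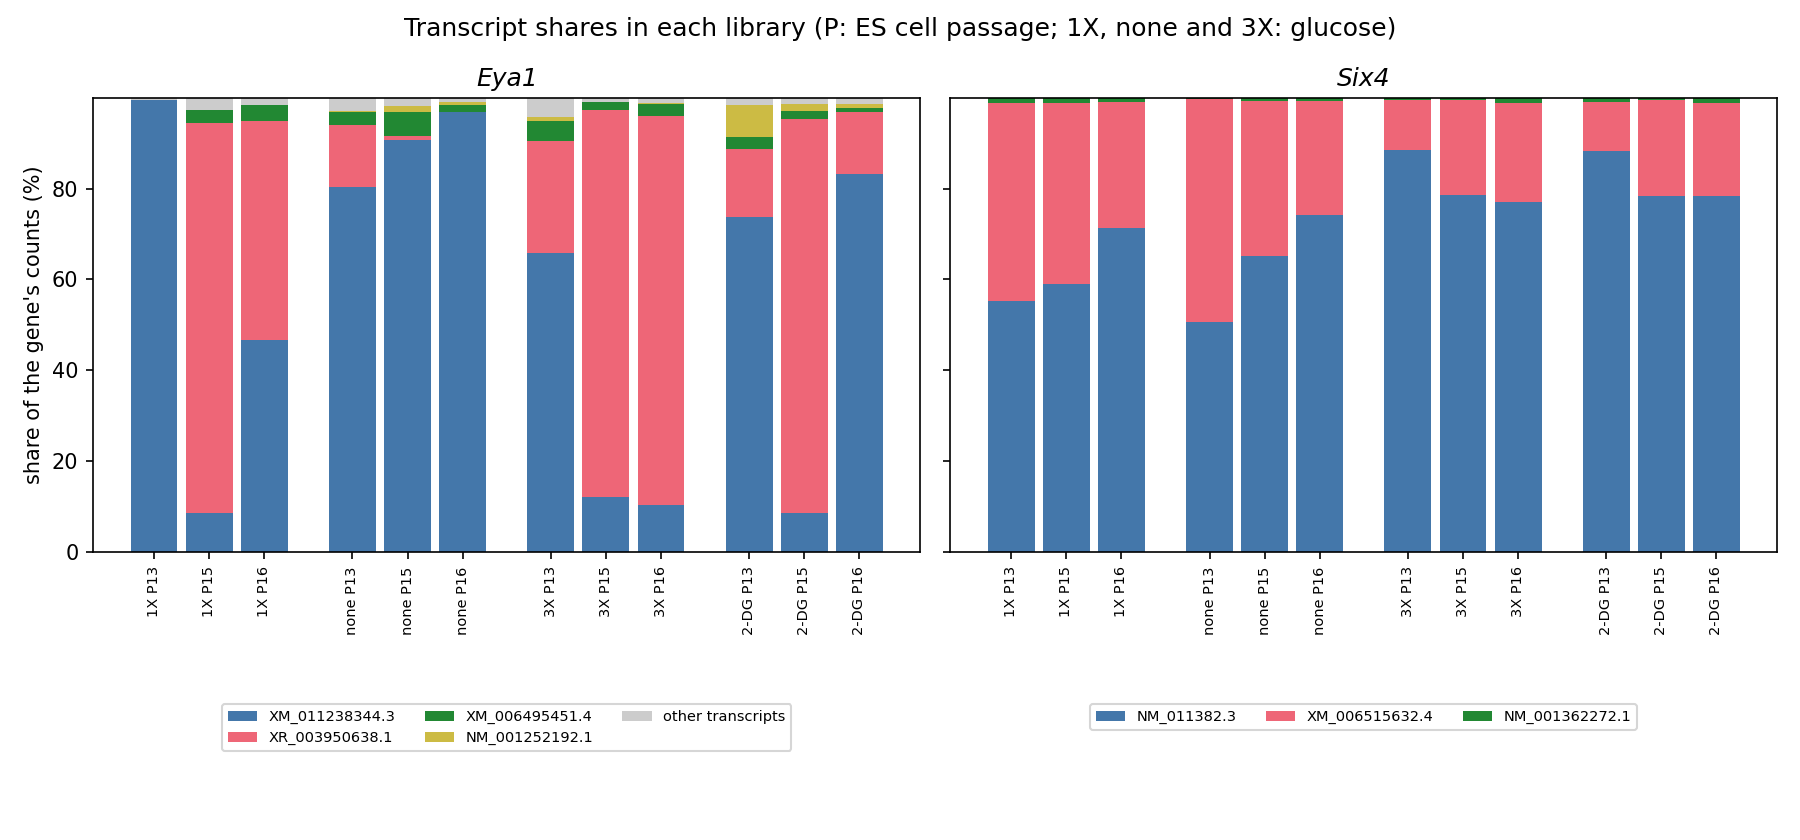
Share of the counts of *Eya1* (left) and *Six4* (right) assigned to each transcript (vertical axis, percent) in each of 12 libraries (bars, by treatment and passage). The leading transcript of *Eya1* swings between 8.42% and 99.7% within 1X glucose, and XM_006515632.4 of *Six4* stays at or below 21.8% under 2-DG and 3X glucose and at or above 25.2% in the others.

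The genes whose pattern over the 12 libraries was most like that of each of the 8 are given with Pearson's r of log2(CPM + 0.5), as a description over 12 libraries that share 4 treatments and 3 passages. For *Dlx3* they were *Sec24d* (r = 0.985), *Usp48* (0.982) and *Abcc5* (0.982), for *Dlx5* *Zfp398* (0.966), *Tnfrsf10b* (0.966) and *BC021767* (0.966), and for *Dlx6* *Zfp703* (0.948), *Ass1* (0.946) and *Phf1* (0.946). For *Eya1* they were *Rasgrp3* (0.993), *Foxc1* (0.992) and *Cd2* (0.990), and for *Six4* *Ajap1* (0.982), *Hipk2* (0.982) and *Ubr3* (0.981). *Gata3* was followed by *Dusp5* (0.985), *Pappa* (0.984) and *Taf6l* (0.984). For *Eya2* the nearest reached 0.865 (*Rab25*), 0.856 (*4930526I15Rik*) and 0.851 (*Mfsd4a*), and for *Tfap2a* 0.870 (*Gm51895*), 0.809 (*Ttc9b*) and 0.792 (*Gm23301*). By rank the likeness to *Dlx3* was weaker, with Spearman's rho at 0.790 (*Sec24d*), 0.853 (*Usp48*) and 0.839 (*Abcc5*). That of *Ttc9b* to *Tfap2a* was weaker too, at 0.692. No gene of the 8 was among the nearest 3 of another.

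Other genes of these families and of surface ectoderm were read from lists chosen with earlier results of these data known, so that their counts are descriptions. They are to be read beside the 17.6% of all genes called in that comparison (9.12% higher), or 41.3% with the passage block (21.1% higher). Of 13 other genes of the same families and of the Dach family 9 were tested and 0 were called by edgeR between 2-DG and 1X glucose (1 at an unadjusted p under 0.05), with a median difference of 0.00 on the log2 scale beside a median of 0.00 over all genes, and with the passage block 1, *Eya3*, was called lower (−0.14, adjusted p = 0.00157). Of 8 AP-2, Gata and Foxi relatives 2 were tested, and *Tfap2c*, an AP-2 factor also known from the germ line and trophoblast, rose by 1.58 (SE 0.28, adjusted p = 0.00445), from 1.25 ± 0.379 CPM under 1X glucose to 3.75 ± 0.909 under 2-DG (SD, n = 3). *Gata2*, the other one, differed by 0.03 (SE 0.49).

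Of 20 genes of surface ectoderm and epidermis 15 were tested, and 4 rose under 2-DG against 1X glucose and none fell. The 4 were *Esrp1*, a splicing factor of epithelia (1.33, adjusted p = 0.00871), *Perp*, a desmosome gene (1.00, adjusted p = 0.0242), *Krt18*, a keratin of simple epithelia (0.87, adjusted p = 0.0244), and *Cdh1*, E-cadherin (0.92, adjusted p = 0.0250). With the passage block 9 of the 15 rose. The summed level of the 20 genes was 187 to 246 CPM under 2-DG, 99.8 to 161 under 1X glucose, 79.1 to 136 without glucose and 125 to 184 with 3X glucose. The median difference of the 15 was 0.58 beside 0.00 over all genes. Most of these genes are general epithelial genes that other epithelia, such as those of the endoderm, express too.

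Of 17 tested genes of BMP signalling 1 was higher under 2-DG than under 1X glucose and 4 were lower. *Nog*, a secreted BMP antagonist, fell by 2.14 on the log2 scale (SE 0.39, adjusted p = 0.00506) and the ligand gene *Bmp2* fell by 1.80 (SE 0.43, adjusted p = 0.0176). *Bambi*, a pseudoreceptor, fell by 0.57 (adjusted p = 0.0186), and *Chrd*, another antagonist, rose by 0.79 (SE 0.19, adjusted p = 0.0189). With the passage block 3 of the 17 were higher and 6 lower. Of 11 tested placode specifiers *Pax6*, a gene of lens and of the neural tube, rose by 1.29 (SE 0.40, adjusted p = 0.0464) and *Pitx3*, a lens gene, fell by 1.80 (SE 0.52, adjusted p = 0.0380), and with the passage block 4 of the 11 were higher and 2 lower.

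Markers of other cells moved with 2-DG beside the Dlx genes. Of 7 tested neural tube genes 4 were higher than under 1X glucose, among them *Irx3* (1.90, adjusted p = 0.00492), *Sox1* (1.84, adjusted p = 0.0185) and *Neurog2* (1.69, adjusted p = 0.0145), and *Nkx6-1* was lower (−1.43, adjusted p = 0.00516). The summed level of the 8 neural tube genes was 119 to 271 CPM under 2-DG, 60.3 to 150 under 1X glucose, 53.3 to 135 without glucose and 70.0 to 156 with 3X glucose. Of 7 tested neural crest genes *Sox9* was higher (1.72, adjusted p = 0.00741), and with the passage block 1 was higher and 2 were lower. *Sox10*, which defines migrating crest, had at most 4 counts in a library. The 8 neural crest genes summed to 92.6 to 127 CPM under 2-DG, 53.1 to 104 under 1X glucose, 64.9 to 127 without glucose and 58.5 to 98.4 with 3X glucose. Of 7 tested intermediate mesoderm genes 2 were higher, among them *Wt1* (1.57, adjusted p = 0.0377), and with the passage block 2 were higher and 1 was lower. Of 7 tested endoderm genes *Trh* was lower (−1.26, adjusted p = 0.0366), and with the passage block 2 were higher and 4 were lower. Of 9 tested paraxial mesoderm genes 0 were called by edgeR (3 at an unadjusted p under 0.05), and with the passage block 1 was higher and 4 were lower. The 8 intermediate mesoderm genes summed to 59.6 to 110 CPM under 2-DG and 28.9 to 124 under 1X glucose, the 8 endoderm genes to 31.2 to 86.4 and 32.3 to 202, and the 10 paraxial mesoderm genes to 352 to 761 and 331 to 930. The part of these cells in the values of *Dlx3*, *Dlx5* and *Dlx6* was not tested. Of the trophoblast genes, another site of *Dlx3*, *Tfap2c* and *Gata3*, *Prl3d1* was at 0 counts in 12 libraries and *Tpbpa* in 11, whereas *Ascl2* (8 to 48 counts) and *Eomes* (3 to 32), which other cells of the embryo also express, were counted in every library. The 9 listed genes summed to 2.37 to 3.00 CPM under 2-DG and 1.89 to 3.05 in the other libraries. Of 5 tested 0 were called by edgeR and 0 had an unadjusted p under 0.05, and with the passage block *Ascl2* was higher under 2-DG than under 1X glucose (1.19, SE 0.23, adjusted p = 0.00215). Their part in the values of *Dlx3* was not tested.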

How the data were processed

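Polyadenylated RNA of 12 gastruloid pools was sequenced from directional libraries. Per the labels and the study's methods, the authors trimmed reads with Trim Galore, aligned them to mm10 with HISAT2, removed PCR duplicates with Picard and deposited estimated counts per RefSeq transcript from StringTie. The strand setting and the annotation release are not given in the sources used here. The deposited tables of the authors' own comparisons, which hold fold changes and p-values, were not used.

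All 120312 transcripts were matched to 38911 genes by accession and their whole-number counts summed per gene. Genes were filtered with filterByExpr (minimum count 10), scaled by TMM and tested with edgeR 4.0.16 (glmQLFit and glmQLFTest, R 4.3.3) over the 12 libraries, with treatment as the only term for treatments and with treatment and passage terms for passages. P-values were adjusted by Benjamini-Hochberg over 16966 genes, with a threshold of 0.05, and positive values mean higher in the group named first. CPM values use the same scaling. Gene bounds are those of RefSeq and lengths those of GENCODE, both on GRCm38. Alternatives were a passage block, other size factors, no filter, the most abundant transcript, DESeq2 1.42.0, only the groups compared, no treatment term and leaving out libraries, passages or all 2-DG libraries.

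The labels give each passage 1 library of every treatment. In deviations of log2 CPM from the treatment means, all 18 pairs of libraries of the same passage correlated, at 0.182 to 0.763. Pairs of different passages reached at most 0.317, so that the ranges overlapped. Centring on means of 3 libraries sets different passages against each other, so part of this contrast is built in. The pairing by passage is taken from the labels. The passages are the study's biological replicates. Without a passage term, p-values are measured against the spread between these 3 passages of 1 line. With the passage block, and in the main tests between passages, they are measured against what is left after treatment and passage terms. No passage was repeated, so tests between passages hold for these sets of libraries alone. Any 2 libraries shared identical counts in at most 9.67% of the transcripts that averaged 10 counts or more. Genes named are the 8 genes, the 3 genes most like each, genes overlapping them on the other strand and, of each list, at most 4 genes called between treatments, in order of p, besides markers that define another cell type. The 8 genes and all lists were chosen with earlier results of these data known. Some genes of the lists are not reported here.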

Additional observations from a re-analysis of the deposited data

Results flagged for a closer look

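*Eya1* is listed for a term that rests on 1 library, that of 2-DG in passage 13, and that was chosen for the value it restates. This term, added to a fit with treatment and passage terms, came to 0.538 on the log2 scale for *Eya1* (SE 0.12, adjusted p = 0.0369, edgeR), beside 2.84% of all genes called. The ratio of the 2-DG to the 1X glucose library was 1.48 in passage 13, 0.950 in passage 15 and 0.928 in passage 16. In passage 13 *Eya1* stood at 9.46 CPM under 2-DG and at 8.96 without glucose, a ratio of 1.06. No dependence on the passage is read from the term. *Gata3* had the larger term, 3.40 (SE 1.52), which did not pass the adjustment (adjusted p = 0.327), and no other gene of the 8 was called.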

How the results depend on the processing

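Of 888 fitted differences of the 8 genes under alternatives, 835 kept their direction and side of the threshold, 30 lost it, 12 gained it and 11 turned; a change of sign within 1 SE in a value called in neither fit counted as unchanged. Altogether 79 changed sign, 0 of them in a value past the threshold in either fit. *Dlx3* stayed called in both 2-DG comparisons under each alternative run. Causes of the changes were not tested.

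The passage block, which pairs the libraries, raised the genes called from 2990 to 7001 (2-DG against 1X glucose), from 3207 to 7305 (2-DG against no glucose) and from 2 to 136 (3X against no glucose), and those of the 8 genes called against no glucose from 2 to 5. In these orders the most abundant transcript alone gave 653, 775 and 1 genes, and 2 between 3X and 1X glucose in place of 0. It gave 1879 of 7840 genes for any passage, 2570 of 7828 for passage 13 and 8 of 713 between passages 16 and 15, and of the 8 genes 1, 1, 0 and 1 (2-DG against 1X and no glucose, any passage, passage 13). Fitting only the groups compared gave 1896 genes against 1X glucose, with 1 of the 8 genes, and 0 in place of 2 for no glucose against 1X glucose and 3X against no glucose. DESeq2 called 12, 2 and 31 genes between no glucose and 1X, 3X and 1X, and 3X and no glucose. Without a treatment term 3241, 4230 and 9 genes were called for any passage, passage 13 (3 of the 8) and passages 16 against 15. For the last, no filter gave 326 and leaving out 2-DG 1328. No filter left 1 of the 8 called against 1X glucose.

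Leaving out 1 library gave 1734 to 2352 genes (2-DG against 1X), 2051 to 2619 (2-DG against no glucose), 1 to 3 (no glucose against 1X, and 3X against no glucose) and 76 to 1410 (passages 16 and 15), with 1 to 3 of the 8 genes called against 1X glucose and 0 to 1 between passages 16 and 15. Without passages 15 and 16 in turn, 113 and 672 genes were called for 2-DG against 1X, 299 and 713 against no glucose, 1 and 0 for no glucose against 1X and 1 and 0 for 3X against no glucose, which gave 4 without passage 13. Of the 8 genes 4 were called in each 2-DG comparison without passage 13 and 1 without passage 15 or 16.

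With the most abundant transcript alone these turned: *Gata3* to 0.54 (2-DG against 1X) and 2.06 (3X against 1X), *Six4* to 0.28 (2-DG against no glucose) and 0.29 (3X against no glucose), and *Eya1* to 1.07, *Eya2* to −0.43 and *Tfap2a* to −0.18 (passages 16 and 15). Without passage 16 *Dlx3* turned to 0.32 and *Tfap2a* to 0.49 (no glucose against 1X), and *Tfap2a* to −0.46 (2-DG against no glucose). Its passage 13 difference ran from −0.21 to 0.37 without 1 library. Counts of 0 to 56 limit *Gata3*, and 11 to 38 *Tfap2a*. Transcripts sharing a coding region were not merged, since the reference tables do not pair them.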
